A study of Mus musculus with 49 samples.

Results

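The 9 genes described here encode transcription and chromatin factors that have been linked to the activation of the mouse embryonic genome: Dppa2, Dppa4, Nr5a2, Esrrb, Rarg, Klf4, Klf5, Klf17 and Tfap2c. They were chosen by symbol, as the rows of the count tables whose Ensembl gene identifier carries one of these names in the annotation of GRCm38, and are 9 of the 54838 genes counted. Expression was measured by Smart-seq+5′, which sequences the 5′ ends of the transcripts of a single embryo. All were late 2-cell embryos of F1 (C57BL/6J x CBA/H) females mated with F1 males. They were injected as zygotes with an antibody and 4 h later with mRNA of mCherry-Trim21, and collected 48 h after hCG. Trim21 is the ubiquitin ligase that sends antibody-bound protein to the proteasome (Trim-Away). TBP loss-of-function (LOF) embryos received monoclonal antibody 3G3 against TBP, the TATA-binding protein, and their CONTROL embryos received normal mouse IgG (mIgG). FOXJ3 LOF embryos received a rabbit polyclonal antibody against FOXJ3, a forkhead factor, and their CONTROL embryos received normal rabbit IgG (rIgG). IgG embryos therefore carried the Trim21 construct too, and uninjected embryos were not analysed here. The labels give 49 embryos, of which 47 passed the study's quality limits: 9 TBP LOF, 9 mIgG CONTROL, 16 FOXJ3 LOF and 13 rIgG CONTROL. The FOXJ3 experiment was made as 2 library batches, the first holding 9 FOXJ3 LOF and 7 rIgG CONTROL embryos and the second 7 and 6.

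In the mouse, transcription of the embryonic genome begins in the zygote and becomes broad in the late 2-cell embryo, while maternal transcripts stored in the oocyte are cleared. Sequence-specific factors, some loaded by the oocyte and some made as transcription begins, open and activate the first promoters and enhancers, and TBP joins core promoters as a subunit of TFIID and of other initiation complexes. Dppa2 and Dppa4 are SAP-domain proteins that bind chromatin as a pair and act upstream of Dux. Nr5a2 and Esrrb are orphan nuclear receptors that recognise closely related motifs, Rarg is a receptor for retinoic acid, Klf4, Klf5 and Klf17 are zinc-finger Krüppel-like factors, and Tfap2c is an AP-2 factor needed in the trophectoderm.

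The members lie on 7 chromosomes of GRCm38, and only Dppa4 and Dppa2 are neighbours. Dppa4 (ENSMUSG00000058550.15) is at chr16:48283733-48294237 and Dppa2 (ENSMUSG00000072419.5) at chr16:48303908-48319723, on the same plus strand with 9670 bases between them. Klf4 (ENSMUSG00000003032.8, chr4:55527143-55532466) and Klf17 (ENSMUSG00000048626.5, chr4:117757836-117765648) share a chromosome, both on the minus strand, but lie far apart. Nr5a2 (ENSMUSG00000026398.14) is at chr1:136842571-136960448 on the minus strand and Rarg (ENSMUSG00000001288.15) at chr15:102234938-102257517 on the minus strand. Esrrb (ENSMUSG00000021255.17, chr12:86361117-86521628), Klf5 (ENSMUSG00000005148.8, chr14:99298691-99315036) and Tfap2c (ENSMUSG00000028640.11, chr2:172549593-172558622) are on the plus strand. All 9 are protein-coding, none overlaps another annotated gene, and each had at least 1 read in all 49 embryos. Over the 49 embryos the members' reads ran from 1025 for Esrrb to 40392 for Klf17, so that Klf17, Dppa4, Dppa2 and Tfap2c were measured far more deeply than Esrrb, Klf4, Klf5 and Rarg.

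Since TBP binds core promoters, the 250 bases before the transcription start are shown for the 5 members found in the RefSeq promoter table (build GRCm38.p6), 1 start per gene. They are read 5′ to 3′ on the strand of the gene, from chr1:136960449-136960698 (minus strand) for Nr5a2, chr12:86360867-86361116 (plus strand) for Esrrb, chr15:102257523-102257772 (minus strand) for Rarg, chr4:55532476-55532725 (minus strand) for Klf4 and chr4:117765667-117765916 (minus strand) for Klf17. Capitals mark matches on either strand. The core promoter motifs searched were the TATA box with the letters TATAAA, the GC box of SP factors with the letters GGGCGG and the binding sequence of NF-Y with the letters CCAAT. The motifs of the members' own families were AAGGTCA for the receptors Nr5a2 and Esrrb, GGGNGTGG for Krüppel-like factors and GCCNNNGGC for AP-2 factors.
Nr5a2: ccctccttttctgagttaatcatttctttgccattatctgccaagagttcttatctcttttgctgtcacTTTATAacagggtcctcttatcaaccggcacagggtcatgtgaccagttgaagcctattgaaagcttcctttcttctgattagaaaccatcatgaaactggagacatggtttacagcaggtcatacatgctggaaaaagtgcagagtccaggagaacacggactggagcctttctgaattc
Esrrb: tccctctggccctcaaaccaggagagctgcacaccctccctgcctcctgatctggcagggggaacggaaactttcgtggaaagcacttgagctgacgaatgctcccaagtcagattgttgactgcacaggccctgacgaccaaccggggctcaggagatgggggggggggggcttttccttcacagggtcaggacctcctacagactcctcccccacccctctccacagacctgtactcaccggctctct
Rarg: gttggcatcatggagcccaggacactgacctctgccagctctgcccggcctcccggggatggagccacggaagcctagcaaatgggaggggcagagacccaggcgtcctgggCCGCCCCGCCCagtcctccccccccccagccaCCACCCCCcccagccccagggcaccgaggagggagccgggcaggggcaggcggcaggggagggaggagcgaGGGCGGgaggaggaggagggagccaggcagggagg
Klf4: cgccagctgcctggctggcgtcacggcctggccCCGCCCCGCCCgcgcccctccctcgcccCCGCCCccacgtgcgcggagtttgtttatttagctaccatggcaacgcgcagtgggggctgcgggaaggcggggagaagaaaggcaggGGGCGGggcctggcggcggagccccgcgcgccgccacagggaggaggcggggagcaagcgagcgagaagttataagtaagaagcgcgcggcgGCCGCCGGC
Klf17: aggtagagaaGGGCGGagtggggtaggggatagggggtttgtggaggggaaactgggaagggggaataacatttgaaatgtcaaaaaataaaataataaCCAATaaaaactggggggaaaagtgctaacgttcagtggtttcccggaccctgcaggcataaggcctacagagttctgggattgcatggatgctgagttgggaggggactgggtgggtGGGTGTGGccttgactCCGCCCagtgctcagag

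These windows differ in composition. G and C made up 74.4% of the Rarg window and 74% of the Klf4 window, 60.8% for Esrrb, 52% for Klf17 and 43.2% for Nr5a2, against a median of 52.4% over 32851 RefSeq promoters of the same length. TATAAA was found only in the Nr5a2 window, on the strand opposite to the gene and 181 to 176 bases before the start, and 12.4% of all promoters hold the motif on either strand. None of the windows held it on the strand of the gene 40 to 20 bases before the start, where 1.99% of all promoters do. Only exact letters were searched, so that a near match such as TATAAG in the Klf4 window is not marked. That near match lies on the strand of the gene, within the 40 to 20 bases before the start. GC boxes were the most frequent match, with 4 for Klf4, 3 for Rarg and 2 for Klf17 (in 32.7% of all promoters). Klf17 also held a CCAAT box (33.8% of all promoters) and a Krüppel-like factor motif, which Rarg held too (15.9%). The AP-2 motif was matched only for Klf4 (13.7%), AAGGTCA in none of the 5 windows (4.08%), and the Esrrb window had no match. Nr5a2, Esrrb and Rarg have a second RefSeq start whose window is not shown: it held a CCAAT box and a Krüppel-like factor motif for Nr5a2, a CCAAT box for Esrrb and 2 Krüppel-like factor motifs for Rarg. A pair of GC boxes shares 1 base in the Klf4 window and another pair does in the Rarg window.

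Counted reads per embryo ran from 1103569 to 5434808. The 10 late 2-cell markers all had reads in every group, and summed to 519 to 1429 CPM (reads scaled to 1000000 counted reads) in TBP LOF, 214 to 760 in mIgG CONTROL, 307 to 767 in FOXJ3 LOF and 271 to 1198 in rIgG CONTROL. Of 9 markers of cumulus cells, the somatic cells around the oocyte, 2 to 4 were at 0 reads in each group, and the rest summed to 10.4 to 36.3 CPM in TBP LOF (median 14.2), 18.6 to 70.7 CPM in mIgG CONTROL (median 23.2), and 10.1 to 54.8 CPM in the FOXJ3 experiment. Of 4 cumulus markers tested, edgeR called 2 lower and 0 higher with ERCC scaling (median log2 fold change −1.82) and 0 lower and 1 higher with TMM scaling. In edgeR 2 of the late 2-cell markers were higher and 0 lower upon TBP LOF with ERCC scaling, and 5 higher and 0 lower with TMM scaling. In CPM the 10 oocyte markers differed between TBP LOF and mIgG CONTROL too. Their sum was 2111 to 3831 CPM in TBP LOF (median 3248) and 950 to 2743 CPM in mIgG CONTROL (median 1641). In rIgG CONTROL it was 1059 to 5832 CPM (median 2371), a range that holds the TBP LOF values, and in FOXJ3 LOF the median was 1862. In edgeR 1 of the 10 was lower and 0 higher with ERCC scaling (median log2 fold change 0.08). With TMM scaling 1 was lower and 7 were higher (median 0.94). Markers of blastocyst lineages, 9 in number, summed to 39.0 to 157 CPM in TBP LOF (median 88.0) and 21.9 to 58.0 CPM in mIgG CONTROL (median 38.3). Their sum was 24.1 to 214 CPM in FOXJ3 LOF (median 50.5) and 30.7 to 226 CPM in rIgG CONTROL (median 75.5). Of the 6 tested, edgeR called 0 lower and 0 higher with ERCC scaling (median log2 fold change −0.32). With TMM scaling it called 0 lower and 1 higher (median 0.58). The part of these markers and of stored maternal RNA in the results below was not tested. ERCC transcripts, added in equal amount with the lysis buffer, took 4.29% ± 1.19 (SD, n = 9) of reads in TBP LOF and 2.76% ± 0.37 (SD, n = 9) in mIgG CONTROL. The mCherry-Trim21 transcript ran from 232 to 2544 CPM in TBP LOF (median 1390) and from 304 to 1490 CPM in mIgG CONTROL (median 770). It was lower in FOXJ3 LOF (225 to 1882 CPM, median 351) than in rIgG CONTROL (246 to 3162 CPM, median 839). With this level as a covariate edgeR called 0 of 18626 genes in the FOXJ3 experiment, and its part within a batch was not tested. Scaling to ERCC gives lower values in TBP LOF than scaling to the other genes, and both are given. Each library is 1 whole embryo collected at the late 2-cell stage, so values are per embryo and RNA per cell was not measured.

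Upon TBP LOF, 7 of the 9 members had fewer ERCC-scaled reads than in mIgG CONTROL at an adjusted p under 0.05 (edgeR's quasi-likelihood test, with Benjamini-Hochberg adjustment over all genes and TE families tested): Dppa2, Dppa4, Nr5a2, Esrrb, Rarg, Klf5 and Tfap2c. None was higher, and Klf4 and Klf17 did not pass. Of all 18447 genes tested, 29.8% were called lower and 1.4% higher, and of the 8778 genes with a mean of at least 10 reads, to which all 9 members belong, 47.9% were called lower. The members' median log2 fold change was −2.12, against −0.70 over all genes. With TMM scaling, which takes the bulk of genes as its reference and puts the median of all genes at 0.13, 5 members were called lower (Dppa2, Dppa4, Esrrb, Klf5 and Tfap2c), with 12.9% of all genes called lower and 13.2% higher, and Klf17 turned from −0.48 to 0.34 without passing under either scaling.

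Dppa2, one of the SAP-domain pair, had 21.2 to 199 ERCC-scaled reads in TBP LOF embryos (median 53.7, n = 9) and 214 to 671 in mIgG CONTROL embryos (median 409, n = 9). Dppa4, its partner, had 25.6 to 168 in TBP LOF (median 116) and 229 to 732 in mIgG CONTROL (median 504). For both genes every TBP LOF embryo lay below every mIgG CONTROL embryo, as was so for 6.96% of all genes tested. Dppa2 was 4.99-fold lower (log2 fold change −2.32 ± 0.35 SE, adjusted p = 5.28e-07 in edgeR) and Dppa4 4.59-fold lower (−2.20 ± 0.33 SE, adjusted p = 4.89e-07). With TMM scaling the log2 fold changes were −1.55 ± 0.27 SE and −1.27 ± 0.28 SE, and the groups then overlapped. Dppa2 reads per Dppa4 read had a median of 0.955 in TBP LOF and 0.916 in mIgG CONTROL, but ran from 0.314 to 1.80 in TBP LOF embryos and from 0.538 to 1.33 in mIgG CONTROL embryos, so that the medians were alike and the range was wider in TBP LOF.

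**Figure D1:**
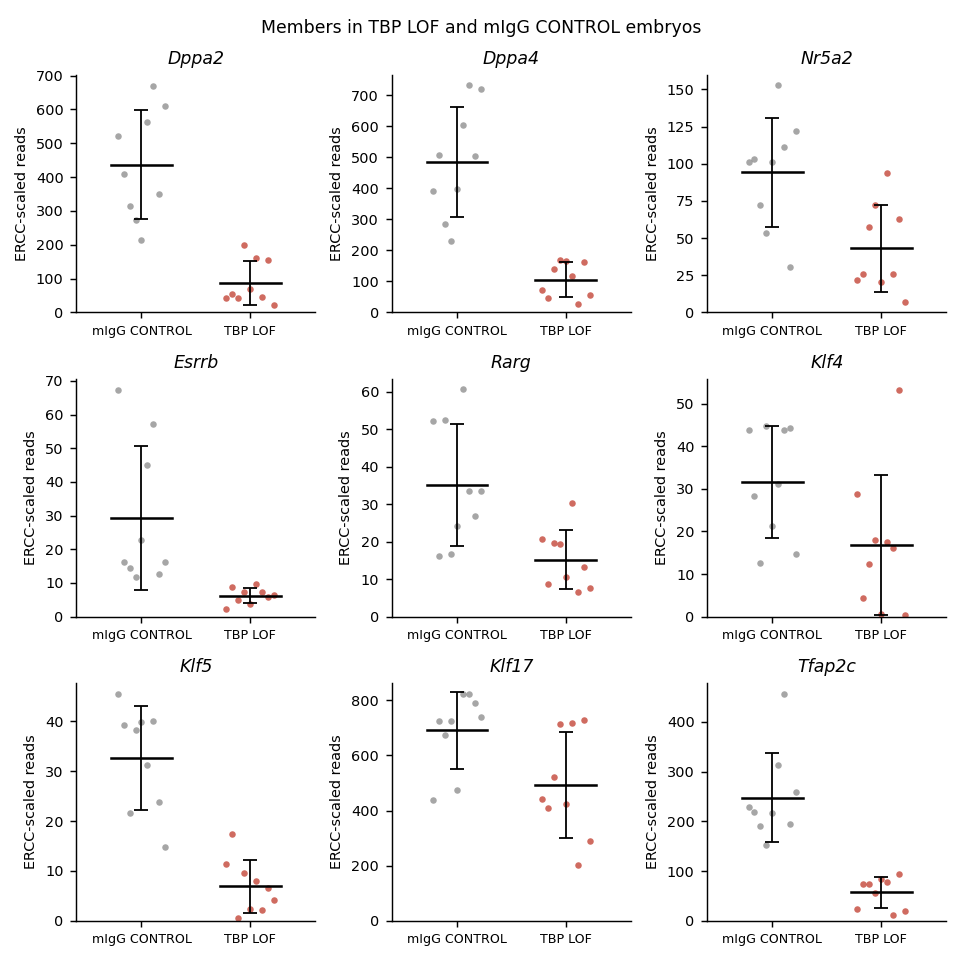
ERCC-scaled reads (vertical axis, 1 panel per gene) of the 9 members in single TBP LOF and mIgG CONTROL embryos; each point is an embryo, and bars give mean ± SD (n = 9 per group). Points of the 2 groups do not overlap for Dppa2, Dppa4, Esrrb and Tfap2c, while Klf17 and Klf4 overlap widely.

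The 3 nuclear receptors were all called lower, and differences between them were not tested. Esrrb had 2.30 to 9.53 ERCC-scaled reads in TBP LOF (median 6.52) and 11.6 to 67.4 in mIgG CONTROL (median 16.3), with no overlap. Its log2 fold change was −2.24 ± 0.45 SE (4.73-fold lower, adjusted p = 7.9e-05 in edgeR), on a few reads per TBP LOF embryo. Nr5a2, the orphan receptor studied as an early activator of embryonic genes, had 7.24 to 93.7 in TBP LOF (median 26.1) and 30.5 to 153 in mIgG CONTROL (median 101). Rarg had 6.59 to 30.2 in TBP LOF (median 13.1) and 16.3 to 60.7 in mIgG CONTROL (median 33.4). For each of these 2 genes, 5 of 9 TBP LOF embryos were below the lowest mIgG CONTROL embryo and all 9 were below the mIgG CONTROL median. Nr5a2 was 2.20-fold lower (−1.14 ± 0.36 SE, adjusted p = 0.0113) and Rarg 2.34-fold lower (−1.23 ± 0.39 SE, adjusted p = 0.0112). Both calls were lost with TMM scaling, where Nr5a2 stood at −0.38 ± 0.28 SE (adjusted p = 0.339) and Rarg at −0.40 ± 0.31 SE (adjusted p = 0.374), while Esrrb was still called (−1.21 ± 0.40 SE, adjusted p = 0.0248). The Esrrb groups overlapped with TMM scaling, 6 of 9 TBP LOF embryos lying below the lowest mIgG CONTROL embryo.

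Of the 3 Krüppel-like factors 1 was called lower. Klf5, which acts in the first lineage choices of the embryo, had 0.612 to 17.4 ERCC-scaled reads in TBP LOF (median 6.56) and 14.8 to 45.5 in mIgG CONTROL (median 38.2), and 8 of 9 TBP LOF embryos were below every mIgG CONTROL embryo. It was 5.01-fold lower (−2.32 ± 0.46 SE, adjusted p = 4.9e-05 in edgeR), and was called with TMM scaling too (−1.51 ± 0.40 SE, adjusted p = 0.005). Klf4, one of the factors that reprogram somatic cells to pluripotency, was the most variable member in TBP LOF, with 0.483 to 53.3 in TBP LOF (median 16.1) and 12.6 to 44.9 in mIgG CONTROL (median 31.2). Of its TBP LOF embryos 4 were below every mIgG CONTROL embryo and 1 was above them all, and the log2 fold change of −0.94 ± 0.47 SE did not pass (adjusted p = 0.130). Without TBP LOF replicate 10 it was −1.43 ± 0.49 SE and passed (adjusted p = 0.0187). Klf17, by far the most abundant of the 3 in reads, had 203 to 729 in TBP LOF (median 443) and 440 to 823 in mIgG CONTROL (median 727). Its log2 fold change was −0.48 ± 0.29 SE with a 95% interval from −1.04 to 0.08 (adjusted p = 0.209), and with TMM scaling 0.34 ± 0.21 SE (adjusted p = 0.238).

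Tfap2c, the AP-2 factor, had 12.5 to 94.2 ERCC-scaled reads in TBP LOF (median 73.5) and 153 to 456 in mIgG CONTROL (median 219). The groups did not overlap, and Tfap2c was 4.34-fold lower (−2.12 ± 0.33 SE, adjusted p = 1.27e-06 in edgeR) and still called with TMM scaling (−1.24 ± 0.27 SE, adjusted p = 9.98e-04). With TMM scaling the groups overlapped, 8 of 9 TBP LOF embryos lying below the lowest mIgG CONTROL embryo. Dppa2, Dppa4, Esrrb, Klf5 and Tfap2c thus lay near −2.2 on the ERCC scale, a range in which 8.78% to 12.1% of all genes had a lower log2 fold change. Nr5a2, Rarg and Klf4 lay nearer to the median of all genes, with 34.0% to 42.6% of genes lower than them, and for Klf17 57.2% of genes were lower. Since the scalings shift all genes nearly alike, fold changes measured from the median of all genes differed little between ERCC and TMM scaling: −1.62 and −1.67 for Dppa2, −0.44 and −0.51 for Nr5a2, and 0.22 and 0.21 for Klf17. They differed most for Esrrb (−1.54 and −1.34) and Klf4 (−0.24 and −0.39). For comparison, the mRNA of Tbp itself was lower too (−2.14 ± 0.37 SE, adjusted p = 5.26e-06), which is a measure of its transcript and not of the protein that Trim-Away degrades, and Foxj3 mRNA did not pass (−0.36 ± 0.31 SE, adjusted p = 0.423). DESeq2 with the same ERCC size factors called the same 7 members.

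**Figure D2:**
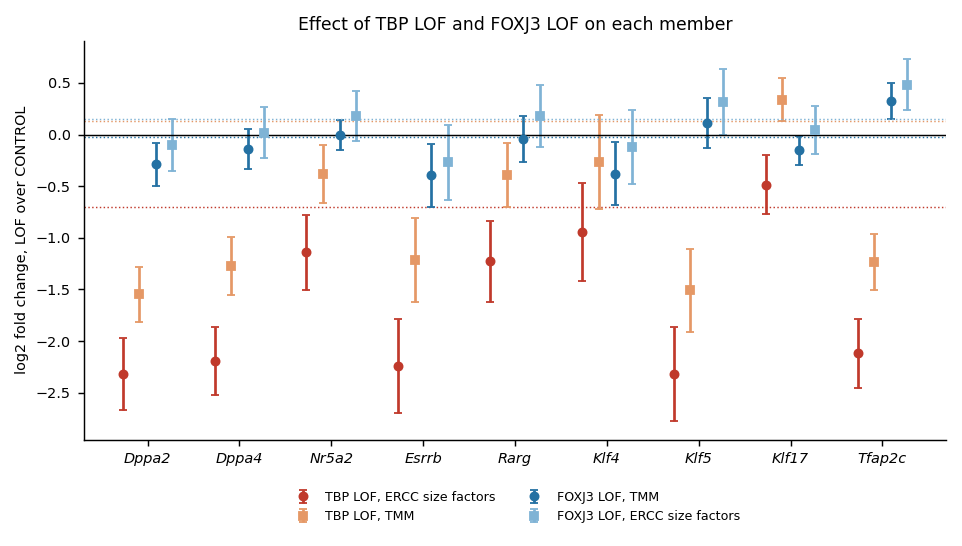
Log2 fold change ± SE (vertical axis) of each member in TBP LOF over mIgG CONTROL and in FOXJ3 LOF over rIgG CONTROL, each with ERCC and with TMM scaling. Dotted lines mark the median of all genes under each scaling. TBP LOF values spread from −0.48 for Klf17 to −2.32 for Dppa2 and Klf5 with ERCC scaling. FOXJ3 LOF values lie on both sides of 0 with TMM scaling, and no member was called.

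Ratios within an embryo need no scaling between embryos. Of the reads of the 9 members, Klf17 took 54.2% to 69.8% in TBP LOF embryos (median 58.8%) and 23.2% to 47.0% in mIgG CONTROL embryos (median 31.4%), without overlap. Dppa2 reads per Klf17 read ran from 0.0737 to 0.279 in TBP LOF (median 0.164) and from 0.375 to 1.19 in mIgG CONTROL (median 0.563). Tfap2c reads per Klf17 read ran from 0.0544 to 0.201 in TBP LOF (median 0.108) and from 0.211 to 0.555 in mIgG CONTROL (median 0.350). Neither ratio overlapped between the groups, as was so, with TBP LOF the lower, for 4.13% of all other genes tested when divided by Klf17. Both overlapped the range of rIgG CONTROL embryos, which was 0.226 to 1.04 for Dppa2 and 0.0679 to 0.391 for Tfap2c. No pair of members without Klf17 gave a ratio free of overlap between TBP LOF and mIgG CONTROL. For Dppa4 over Klf17, 8 of 9 TBP LOF embryos lay below the lowest mIgG CONTROL embryo, for Klf5 7, for Esrrb 6, for Klf4 3, for Rarg 2 and for Nr5a2 1. In FOXJ3 LOF Klf17 took 24.0% to 53.7% of the members' reads (median 39.5%) and in rIgG CONTROL 27.7% to 64.8% (median 41.2%). These ratios show that the members changed unequally, not that Klf17 itself stayed constant.

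**Figure D3:**
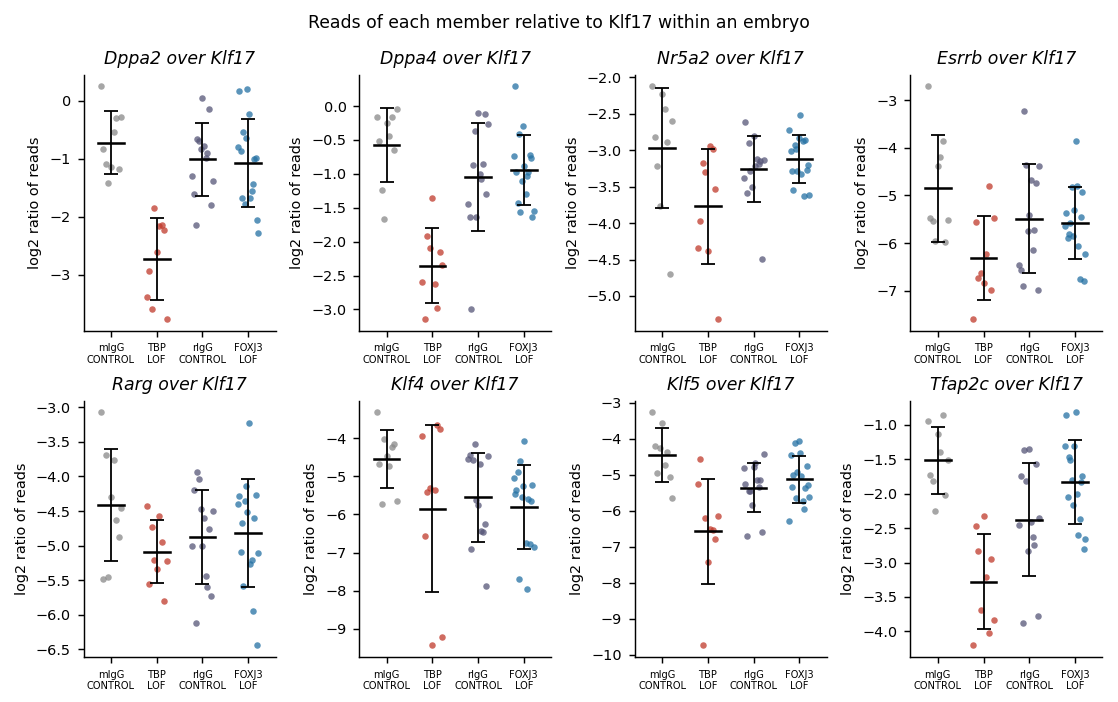
Log2 ratio of the reads of each of the 8 other members to the reads of Klf17 in the same embryo (vertical axis), in the 4 groups; points are embryos and bars mean ± SD. TBP LOF embryos do not overlap mIgG CONTROL for Dppa2 and Tfap2c but overlap rIgG CONTROL for both, while for Nr5a2 only 1 of 9 lies below the lowest mIgG CONTROL embryo.

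Upon FOXJ3 LOF, 0 of the 9 members were called against rIgG CONTROL by edgeR with TMM scaling and batch as a covariate, 0 had an unadjusted p under 0.05, and DESeq2 called 0. Over all genes 0.0107% (2 of 18626) were called and 5.69% had an unadjusted p under 0.05. The members' median log2 fold change was −0.14, against −0.03 over all genes. Dppa2 had 244 to 851 TMM-scaled reads in FOXJ3 LOF (median 394, n = 16) and 186 to 1064 in rIgG CONTROL (median 485, n = 13), and its log2 fold change of −0.29 ± 0.21 SE has a 95% interval from −0.69 to 0.11 (adjusted p = 0.919). Klf17 had 570 to 1180 in FOXJ3 LOF (median 920) and 568 to 1623 in rIgG CONTROL (median 918), with a log2 fold change of −0.15 ± 0.14 SE (interval from −0.43 to 0.13). For both genes every FOXJ3 LOF embryo lay within the range of the rIgG CONTROL embryos. Tfap2c went the other way, with 153 to 397 in FOXJ3 LOF (median 261) and 62.3 to 401 in rIgG CONTROL (median 189), but 0.33 ± 0.18 SE (interval from −0.02 to 0.67) did not pass (p = 0.0685, adjusted p = 0.895). Nr5a2 stood at −0.00 ± 0.14 SE, with 70.6 to 133 TMM-scaled reads in FOXJ3 LOF and 72.2 to 147 in rIgG CONTROL. The widest intervals were those of the members with few reads, such as Esrrb from −0.99 to 0.20 and Klf4 from −0.97 to 0.22. Foxj3 mRNA did not pass either (0.28 ± 0.13 SE, adjusted p = 0.861).

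Levels of the SAP-domain pair in the FOXJ3 experiment were also compared within batches. In batch 1 Dppa2 had 271 to 851 TMM-scaled reads in FOXJ3 LOF (median 527, n = 9) and 186 to 1064 in rIgG CONTROL (median 476, n = 7), and Dppa4 had 311 to 698 (median 410) and 115 to 958 (median 417). In batch 2 Dppa2 had 244 to 478 TMM-scaled reads in FOXJ3 LOF (median 334, n = 7) and 313 to 682 in rIgG CONTROL (median 554, n = 6), and Dppa4 had 344 to 582 (median 459) and 447 to 701 (median 663). Fitted in batch 2 alone, edgeR gave −0.64 ± 0.20 SE for Dppa2 (p = 0.00356, adjusted p = 0.739) and −0.44 ± 0.17 SE for Dppa4 (p = 0.0180, adjusted p = 0.861). The other 7 members had an unadjusted p above 0.05 in that fit, and 5.45% of all genes had one under it. In batch 1 alone Dppa2 and Dppa4 stood at −0.01 ± 0.30 SE and 0.09 ± 0.31 SE. The difference between the batches itself did not pass for either gene (Dppa2 −0.64 ± 0.40 SE, adjusted p = 0.701; Dppa4 −0.54 ± 0.39 SE, adjusted p = 0.737). edgeR called 0 of 18626 genes (0%) for that difference, 1494 genes and 0 members having an unadjusted p under 0.05, and DESeq2 was not run on it.

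**Figure D4:**
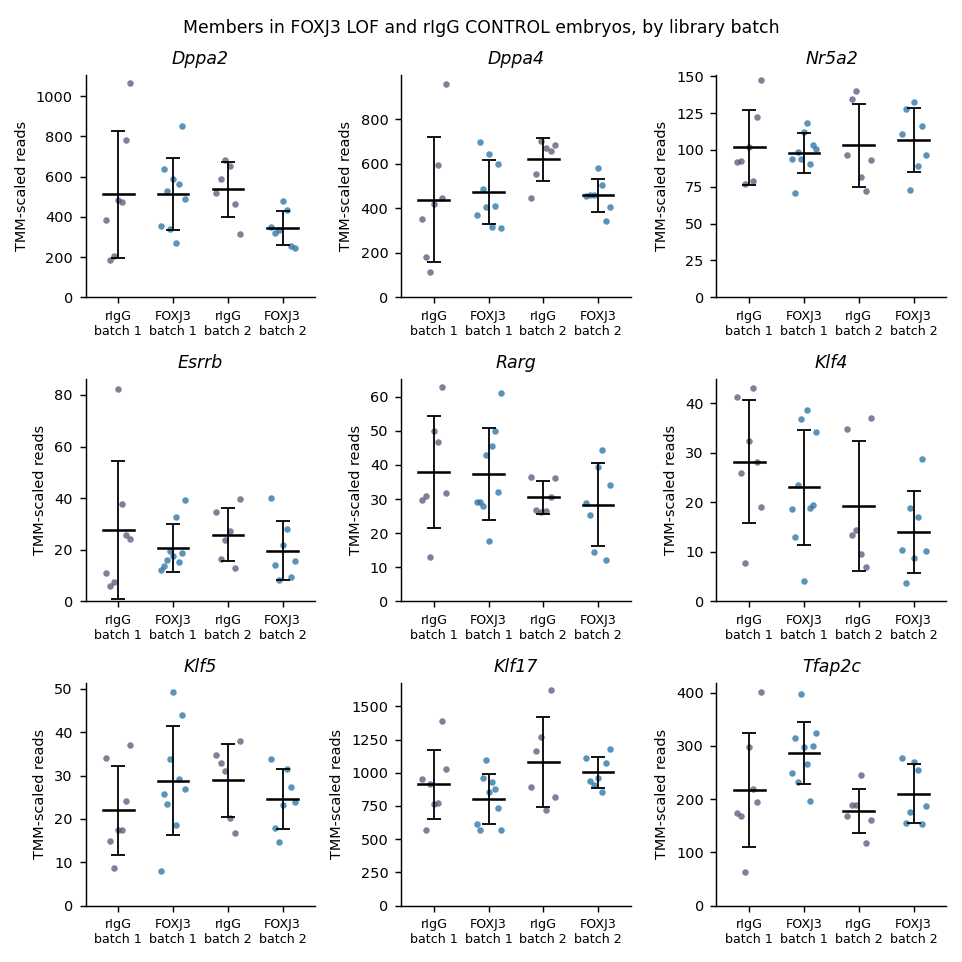
TMM-scaled reads (vertical axis, 1 panel per gene) of the 9 members in FOXJ3 LOF and rIgG CONTROL embryos of batches 1 and 2; points are embryos and bars mean ± SD. The groups overlap in every panel, and Dppa2 and Dppa4 lie lower in FOXJ3 LOF than in rIgG CONTROL in batch 2.

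Whether the 2 losses of function differed for a member was tested in 1 edgeR fit over all 47 embryos with ERCC scaling. The TBP LOF effect was the more negative at an adjusted p under 0.05 for 7 members, and for 28.1% of all genes tested. The difference in log2 fold change was −2.60 ± 0.54 SE for Klf5, −2.59 ± 0.42 SE for Tfap2c, and −2.19 for both Dppa2 (± 0.43 SE) and Dppa4 (± 0.41 SE). Esrrb (−1.98 ± 0.59 SE, adjusted p = 0.00705), Rarg (−1.39 ± 0.48 SE, adjusted p = 0.0203) and Nr5a2 (−1.33 ± 0.43 SE, adjusted p = 0.0138) passed too. Klf4 (−0.80 ± 0.63 SE, adjusted p = 0.370) and Klf17 (−0.52 ± 0.37 SE, adjusted p = 0.307) did not. With TMM scaling 4 members passed (Dppa2, Dppa4, Klf5 and Tfap2c), as did 10.9% of all genes in the same direction. The experiments also differ in the species and clonality of the antibody and in library batch, which cannot be told apart from the target here.

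The 2 kinds of IgG were compared as a background. They belong to different experiments, so that kind of IgG and experiment cannot be told apart. edgeR with TMM scaling called 0 members between mIgG CONTROL and rIgG CONTROL, where 0.624% of all genes were called, and 0 between the batches of rIgG CONTROL, where 0.0267% were. At an unadjusted p under 0.05 there were 1 and 0 members, and DESeq2 was not run on these comparisons. The 1 member was Klf17, with 301 ± 60.2 CPM (SD, n = 9) in mIgG CONTROL and 486 ± 155 CPM (SD, n = 13) in rIgG CONTROL. Its log2 fold change in edgeR was −0.48 ± 0.17 SE (p = 0.0067, adjusted p = 0.183), so it did not pass. With ERCC scaling it was −0.28 ± 0.27 SE. Between rIgG CONTROL batches Dppa4 differed by −0.51 ± 0.32 SE (batch 1 minus batch 2, adjusted p = 0.742).

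Levels of the members, as CPM per kilobase of exon, covered a wide range in mIgG CONTROL embryos. Dppa4 (126 ± 38.5, SD, n = 9) and Klf17 (125 ± 25.1) were highest and could not be ordered, Dppa4 being above Klf17 in 6 of 9 embryos. Dppa2 (76.8 ± 24.1), Tfap2c (29.0 ± 8.04) and Nr5a2 (6.82 ± 2.30) followed. Klf4 (4.66 ± 2.22), Rarg (3.61 ± 1.68), Klf5 (2.80 ± 1.02) and Esrrb (2.12 ± 1.64) came last, and from Nr5a2 on each gene was above the next in only 6 or 7 of 9 embryos. In TBP LOF embryos Klf17 (135 ± 42.0) was above Dppa4 (mean 43.9) in 9 of 9, and the other genes followed by mean in the order of mIgG CONTROL, though Klf4 was above Rarg, and Klf5 above Esrrb, in only 4 of 9. rIgG CONTROL embryos had Klf17 (202 ± 64.7, SD, n = 13) above Dppa4 (157 ± 77.0) in 9 of 13. Reads of 5′ ends need not grow with transcript length. By CPM without the division, Klf17 was above Dppa4 in 9 of 9 mIgG CONTROL embryos (301 ± 60.2 and 210 ± 64.0 CPM). The lowest genes there lay close together and in another order: Rarg (15.4 ± 7.17 CPM), Klf5 (14.6 ± 5.30), Klf4 (14.2 ± 6.77) and Esrrb (12.8 ± 9.89).

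**Figure D5:**
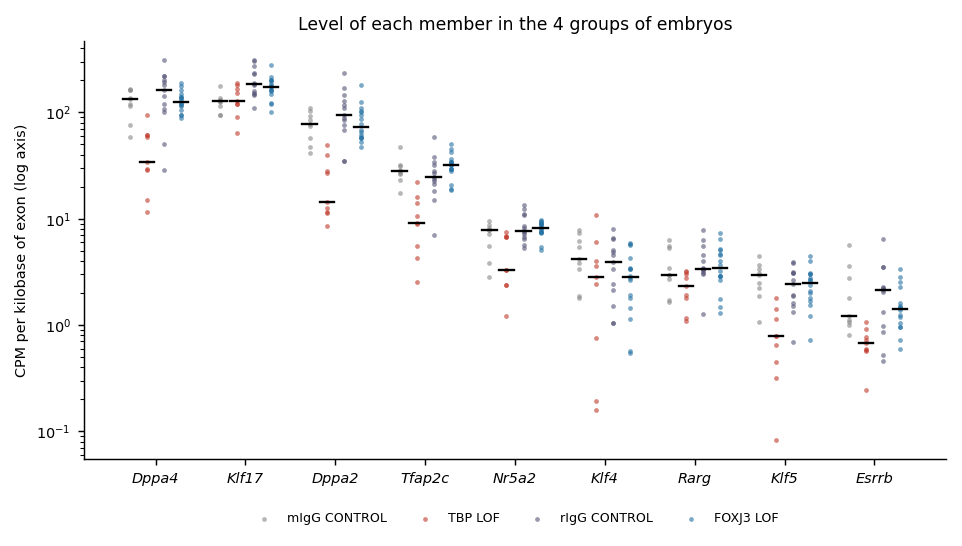
CPM per kilobase of exon of each member (vertical log axis) in the 4 groups; points are embryos and bars are medians. Klf17, Dppa4, Dppa2 and Tfap2c have higher medians than the other 5 members in the CONTROL groups. Medians are lower in TBP LOF than in mIgG CONTROL for all members but Klf17, for which they are alike (127.2 and 127.3).

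Embryos of 1 group mostly differed from each other by more than counting alone gives, the exception being Esrrb in TBP LOF (coefficient of variation of CPM 34.2%, counting error 34.0%). In mIgG CONTROL this coefficient was 31.4% for Dppa2, where counting error would give 4.86%, and 27.7% for Tfap2c (counting 6.38%). The widest spread was that of Klf4 in TBP LOF (99.2%, counting 23.4%), and Esrrb was the most variable member in mIgG CONTROL (77.2%, counting 19.6%). Few reads did not always go with a wide spread: in TBP LOF Esrrb varied less than Dppa2 (64.4%, counting 10.2%). Nr5a2 in FOXJ3 LOF was among the steadiest (16.8%, counting 9.77%). Within groups, Dppa2 and Dppa4 varied in the same direction from embryo to embryo in CPM: Spearman's rho was 0.50 in TBP LOF (n = 9), 0.62 in mIgG CONTROL (n = 9), 0.73 in FOXJ3 LOF (n = 16) and 0.78 in rIgG CONTROL (n = 13), and Pearson's r was 0.54, 0.69, 0.79 and 0.86. Without the 2 embryos farthest from the median of Dppa2, Pearson's r was 0.37, 0.65, 0.62 and 0.72. Over all 36 pairs of members the median rho was 0.13, 0.29, 0.20 and 0.49 in the same order, and 21, 25, 26 and 34 pairs were positive. The highest rho of each group (0.93, 0.92, 0.80 and 0.87) belonged to another pair than Dppa2 and Dppa4. The sign could differ between groups, as for Esrrb and Rarg, with 0.87 in rIgG CONTROL and −0.78 in TBP LOF. These are descriptions over few embryos, the 2 genes of a pair sharing the library and depth of each embryo, and no test was made.

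The genes whose CPM followed a member most closely over all 47 embryos were never other members. By Spearman's rho over 9273 genes with a mean of at least 10 reads, these were Rpl24 (0.89) and Gm28037 (0.89) for Dppa2, Map1lc3b (0.86) and Polr3k (0.86) for Dppa4, and Nsun2 (0.87) and Cdc37 (0.87) for Tfap2c. Rpl24 and Gm28037 overlap each other on chromosome 16, so that their reads may not be separable. Klf17 was followed by Obox3-ps2 (0.84) and Noct (0.79), Esrrb by Ddx47 (0.81) and Zmpste24 (0.79), Klf5 by Sun1 (0.76) and Knop1 (0.75), and Nr5a2 by Anapc4 (0.76) and Gm5475 (0.74). Rarg, followed by Zp3 (0.70) and Dennd3 (0.70), and Klf4, followed by A330069E16Rik (0.63) and Slc2a3 (0.61), had the loosest neighbours. The points include the 9 TBP LOF embryos, in which most of the members were low.

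The counts of genes called lower in the lists that follow stand against 29.8% of all genes with ERCC scaling. Of 14 other Krüppel-like factor genes 11 were tested, 3 were called lower by edgeR with ERCC scaling and 0 higher, with a median log2 fold change of −0.61 (all genes −0.70); with TMM scaling 2 were lower and 2 higher. Those lower were Klf9 (−1.87 ± 0.36 SE, adjusted p = 4.14e-05), Klf11 (−1.43 ± 0.32 SE, adjusted p = 3.13e-04) and Klf2 (−1.83 ± 0.68 SE, adjusted p = 0.0328), the last not with TMM scaling (adjusted p = 0.231). Klf9, a glucocorticoid- and thyroid hormone-responsive repressor, had 3.62 to 26.2 ERCC-scaled reads in TBP LOF and 36.3 to 109 in mIgG CONTROL. Of 7 genes of the AP-2 family and their CITED coactivators 6 were tested and 0 were called (edgeR; 1 had an unadjusted p under 0.05, and DESeq2 called 0), with a median of 0.09. Tfap2e, a paralogue of Tfap2c, had 13.2 to 59.7 ERCC-scaled reads in TBP LOF and 6.72 to 43.4 in mIgG CONTROL (0.48 ± 0.39 SE, adjusted p = 0.395), and was called higher with TMM scaling (1.26 ± 0.33 SE, adjusted p = 0.00524). Cited1 stood at −0.90 ± 0.42 SE (adjusted p = 0.0986).

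Of 29 other nuclear receptor genes 20 were tested, with 3 lower and 0 higher (median −0.20; with TMM scaling 2 lower and 3 higher). The largest of these changes was that of Nr1h3, the oxysterol receptor LXRα, with 0 to 14.3 ERCC-scaled reads in TBP LOF and 12.2 to 70.8 in mIgG CONTROL (−2.81 ± 0.51 SE, adjusted p = 1.39e-05). Nr2c2, the orphan receptor TR4, was lower by both scalings (−1.86 ± 0.36 SE, adjusted p = 4.33e-05), and Nr1d2, a circadian repressor, only with ERCC scaling (−1.63 ± 0.58 SE, adjusted p = 0.025). Of 16 genes of retinoid synthesis, binding and response, the pathway of Rarg, 10 were tested and 1 was lower, Crabp1 (−2.07 ± 0.78 SE, adjusted p = 0.0364), a binding protein for retinoic acid. DESeq2 did not call it, the median of the list was 0.70, and with TMM scaling 0 were lower and 4 higher. Of 12 nuclear receptor coregulators 11 were tested and 1 was lower, the arginine methyltransferase Prmt1 (−1.88 ± 0.37 SE, adjusted p = 4.58e-05), with a median of −0.03 (with TMM scaling 1 lower and 3 higher).

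Among 22 other activators linked to genome activation, all tested, 8 were lower and 0 higher, near the share of all genes (29.8%) called lower (median −0.54; with TMM scaling 5 lower and 6 higher). Tead4, the trophectoderm partner of Yap1, had 0 to 6.76 ERCC-scaled reads in TBP LOF and 11.4 to 47.2 in mIgG CONTROL (−3.28 ± 0.53 SE, adjusted p = 2.22e-06). Nfyb, a subunit of the CCAAT-binding factor NF-Y, had 5.55 to 78.4 and 123 to 243 (−2.39 ± 0.36 SE, adjusted p = 5.15e-07), and Gabpa, an ETS factor, 11.6 to 169 and 172 to 480 (−2.24 ± 0.36 SE, adjusted p = 1.93e-06). None of these 3 genes, chosen as those with the smallest adjusted p of the list, overlapped between the groups, as was so for 6.96% of all genes. Of 15 partners of Dppa2 and Dppa4 and genes linked to them, all tested, 3 were lower and 1 higher, beside 29.8% and 1.4% of all genes (median −0.34; with TMM scaling 2 lower and 3 higher). Dppa5a, an RNA-binding protein of pluripotent cells, had 179 to 997 ERCC-scaled reads in TBP LOF and 1400 to 3752 in mIgG CONTROL (−2.13 ± 0.32 SE, adjusted p = 5.00e-07). The SUMO gene Sumo2 (−1.65 ± 0.32 SE, adjusted p = 4.59e-05) and Zfp42, also called Rex1 (−1.78 ± 0.43 SE, adjusted p = 7.72e-04), were lower too, Zfp42 not with TMM scaling (adjusted p = 0.128). Tcstv3, a gene of the Zscan4-expressing 2-cell state, was higher, with 235 to 1423 ERCC-scaled reads in TBP LOF and 74.1 to 634 in mIgG CONTROL (1.77 ± 0.34 SE, adjusted p = 4.13e-05). In FOXJ3 LOF edgeR called 0 genes of each of these 7 lists, 0 to 2 per list had an unadjusted p under 0.05, and DESeq2 called 0.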

How the data were processed

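Single late 2-cell embryos were measured by Smart-seq+5′. The authors trimmed the 5′-end reads with Trimmomatic, mapped them with STAR 2.7.11a to GRCm38 with the mCherry-Trim21 construct included and the endogenous locus masked, kept read 2, and ran TEcount over gencode M20 genes, ERCC transcripts and TE families. The deposited values are such estimated counts, all whole numbers, 1 embryo per table and without normalization. How reads with several positions were shared out, and whether strand was used, is not given in the sources consulted. The 19 tables of single TE insertions were not used.

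The members, lists and tests were chosen with earlier results of these data known. Symbols and exon lengths came from the GRCm38 annotation. Embryos were kept with at least 500000 reads, 1000 genes detected, at most 10% mitochondrial and 15% ERCC reads. Features with at least 1 read in 25% of embryos entered edgeR 4.0.16 (R 4.3.3), whose quasi-likelihood test was used two-sided, with p-values adjusted by Benjamini-Hochberg across genes and TE families together and called at 0.05. Size factors for TBP came from the 42 ERCC transcripts detected in all of its embryos. For FOXJ3, TMM was used and batch was a covariate. The difference between experiments used all 47 embryos with ERCC factors (41 transcripts). SE was derived from the F statistic, and no pseudocount entered levels. Correlations used log2(CPM + 1). DESeq2 1.42.0 was an alternative, and the test was tried on simulated data. Named genes were, per list, at most 3 per direction past the threshold by smallest adjusted p, otherwise 2 with the highest mean count, and for each member the 2 nearest genes. TBP embryos came from 3 collections that the labels do not tell apart, and no such term was fitted. Without molecular identifiers PCR copies count as reads, so counting errors cover counting only. Python 3.11.15, pandas 2.3.3, numpy 2.4.6 and matplotlib 3.10.9 were used.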

Additional observations from a re-analysis of the deposited data

Results flagged for a closer look

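The log2 fold change upon TBP LOF differed from that upon FOXJ3 LOF, in an edgeR test of the difference itself with ERCC scaling, for 7 members: by −2.19 for Dppa2, −2.19 for Dppa4, −1.33 for Nr5a2, −1.98 for Esrrb, −1.39 for Rarg, −2.60 for Klf5 and −2.59 for Tfap2c. Of all 18759 genes tested, 28.1% were called more negative in TBP LOF by this test. Of the 7 members, Nr5a2, Esrrb and Rarg did not pass with TMM scaling, where 10.9% of all genes were called more negative. Outlying embryos were sought by Dixon's ratio of gap to range in 18 sets of ERCC-scaled values, 9 members in TBP LOF and mIgG CONTROL. None was called. The highest ratios were 0.474 for Tfap2c in mIgG CONTROL and 0.465 for Klf4 in TBP LOF. The latter embryo was replicate 10, without which the Klf4 call changed.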

How the results depend on the processing

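The 7 calls upon TBP LOF were made in each of 18 fits that left out 1 embryo. Over these fits Dppa2 ran from −2.55 to −2.19, Dppa4 from −2.31 to −2.07, Nr5a2 from −1.36 to −0.99, Esrrb from −2.35 to −2.01, Rarg from −1.40 to −1.09, Klf4 from −1.43 to −0.76, Klf5 from −2.61 to −2.14, Klf17 from −0.58 to −0.38 and Tfap2c from −2.24 to −1.96. Klf17 turned positive with TMM (0.34) and with DESeq2 size factors (0.35), where Nr5a2 and Rarg lost their calls. In FOXJ3 LOF 0 members were called in any of 29 fits without 1 embryo; values near 0 changed sign there, from −0.24 to 5.5e-04 for Dppa4, −0.042 to 0.045 for Nr5a2 and −0.12 to 0.038 for Rarg. They also turned with ERCC scaling (Dppa4 0.018, Nr5a2 0.18, Rarg 0.18, Klf17 0.042), in batch 1 alone (Dppa4 0.093), in batch 2 alone (Nr5a2 0.060, Klf5 −0.21) and with Trim21 level as a covariate (Nr5a2 0.043, Klf17 0.013). For the difference between the experiments, TMM scaling called 4 members in place of 7 and gave 0.14 for Klf4 and 0.50 for Klf17. Between mIgG CONTROL and rIgG CONTROL, ERCC scaling gave 0.0049 for Dppa2, 0.15 for Dppa4 and 0.12 for Nr5a2. Apart from scaling, the cause of these changes was not tested. The labels do not say whether embryo numbers pair the samples. Correlations ran from −0.05 to 0.13 over 7 same-numbered TBP pairs (0 best with their own number). Over 12 FOXJ3 pairs they ran from −0.21 to 0.27, and 3 were best with their own number. Those 3 were all in batch 2 (0.068, 0.27 and 0.14 for embryos 1, 5 and 7), so shared handling there is not excluded. With these numbers as a replicate block 7 members were called in TBP LOF, beside 4579 of 18447 genes called lower and 281 higher. In FOXJ3 LOF 0 members and 0 of 18626 genes were called, and Dppa4 (0.064) and Nr5a2 (0.076) turned positive. As the numbers are not known to pair the samples, this block cannot show whether pairing or collection mattered. Few reads limit Esrrb, Klf4, Klf5 and Rarg most.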
